A study of Mus musculus with 40 samples.

Results

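Guanylate-binding proteins (GBP) and immunity-related GTPases (IRG) are 2 families of interferon-inducible GTPases. The set described here was given by name as 10 mouse genes, the GBP genes Gbp2, Gbp3, Gbp5, Gbp6, Gbp7 and Gbp9 and the IRG genes Irgm1, Irgm2, Igtp and Ifi47. Matched by Ensembl identifier, 8 of the 10 had a row in the deposited tables, 4 GBP and 4 IRG genes, out of 21461 nuclear protein-coding genes. All 8 passed the filter on low values, which left 14928 genes for testing. Gbp5 and Gbp6 were not matched by their identifiers in the annotation used and are not analysed here. Whether the tables hold them under other identifiers was not checked.

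Both families are transcribed when an interferon binds its receptor. Interferon gamma signals through JAK1 and JAK2 to factors that bind the GAS motif in promoters and also induce the transcription factor IRF1. Type I interferons signal through JAK1 and TYK2 to a complex that holds STAT2 and IRF9 and binds the ISRE motif, so that the classes of interferon target genes overlap. In mouse cells the proteins of both families gather on the vacuoles of intracellular pathogens, where effector GBP and IRG proteins damage the membrane and the IRGM subfamily (Irgm1, Irgm2 and Igtp) restrains IRG effectors on the cell's own membranes.

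RNA was measured by sequencing in 40 spontaneous mammary tumours of MMTV-Wnt1 mice, whose transgene expresses the Wnt1 ligand from the MMTV promoter, active in mammary epithelium. All groups carry this transgene. Some mice received doxorubicin, a chemotherapy drug that traps topoisomerase II on DNA and causes strand breaks, at 4 mg/kg into the peritoneum on each of 5 days, with harvest 24 h after the last injection, and others were left untreated. The labels call their genotypes p53-null, p21-null (Cdkn1a) and wild-type for both genes. Tumours that share an animal number in their title were taken as tumours of 1 mouse and averaged on the log2 scale. This gave 5 doxorubicin and 6 untreated wild-type mice, 5 doxorubicin and 4 untreated p53-null mice, and 9 doxorubicin and 5 untreated p21-null mice. Ages are not in the labels.

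Levels are TPM, a length-corrected share of the transcripts of a tumour, rescaled so that the nuclear protein-coding genes of each tumour sum to 1000000, called rescaled TPM below. The rescaling matters because protein-coding genes held 7.72 to 10.7% of the deposited TPM in wild-type tumours, whose libraries were made with a total RNA kit, and 79.6 to 86.3% in the null tumours, whose libraries were made with another kit. Between wild-type and null tumours, kit and genotype thus cannot be told apart, while both treatment groups of a genotype share a kit. Cdkn1a, a p53 target gene, had medians of 207 rescaled TPM in doxorubicin and 37.2 in untreated wild-type tumours, and of 58.9 in doxorubicin and 40.1 in untreated p53-null tumours. In tumours labelled p21-null, Cdkn1a reads remained, with medians of 274 in doxorubicin and 64.0 in untreated tumours. Trp53 reads remained in p53-null tumours at medians of 52.8 in doxorubicin and 71.2 in untreated tumours. Which part of either gene is deleted is not stated in the labels, so gene-level values do not check the null labels, and genotypes are named as labelled. Markers of luminal and of basal mammary epithelium were high in every tumour group, with summed medians between 2582 and 4050 rescaled TPM.

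Gbp2, Gbp3 and Gbp7 lie in 1 cluster on chromosome 3 (GRCm38, plus strand), at positions 142620602 to 142638008, 142560026 to 142573209 and 142530342 to 142550149. Gbp9 lies on the minus strand of chromosome 5 at 105077630 to 105139539, where its annotated span overlaps Gbp8 and Gbp4 on the same strand. The 4 IRG genes lie on chromosome 11. Irgm1 occupies 48861968 to 48871683 on the minus strand, Ifi47 occupies 49076587 to 49096974 on the plus strand, and the plus-strand spans of Igtp (58199556 to 58207591) and Irgm2 (58199618 to 58222782) overlap each other. Sequence shared between annotated genes limits how reads can be told apart. Of the 50-base words in its transcripts, Igtp shared 11.8% with Irgm2, Gbp7 shared 10.5% with the annotated gene Gm43802, and Gbp9 shared 4.42% with Gbp8. For Irgm1 the share with any other gene was 0.379%. Values of Igtp, Irgm2, Gbp7 and Gbp9 are therefore uncertain to the extent that the estimation of abundance divided reads among these genes. Where annotated spans overlap, shared words can be the same genomic bases, which the comparison did not separate from copies. Ifi47 overlaps Olfr56 on the same strand, with which it shared 2.54% of its words.

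Promoter windows from RefSeq (GRCm38.p6, from 250 bases before to 50 bases after the annotated start) were found for 8 of the 10 genes. Gbp5, which was not matched to a row, is among them, and the measured gene Gbp9 had no window. The windows were searched for 2 interferon motifs, since the measured members moved together. The ISRE letters were GAAANNGAAA, or TTTCNNTTTC on the other strand, and the GAS letters were TTCNNNGAA, which read the same on both strands. The ISRE letters stood in the windows of 7 of the 8 genes, against 3.44% of 32851 windows of all genes. The GAS letters stood in 4 of the 8, against 8.30% of all windows, and both stood in 4 of the 8, against 0.454%. The Ifi47 window held neither, and one of the 2 windows of Gbp3 held neither. A gene was counted if any of its windows matched, while the shares are of single windows. The unmatched Gbp5 held both motifs and is in each of these counts. The stretches below hold the matches, in capitals and 5′ to 3′ along the gene's own strand, for measured genes.
Gbp2, chr3:142620589-142620628, plus strand, 1 ISRE: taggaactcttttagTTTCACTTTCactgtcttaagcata
Gbp3, chr3:142559984-142560029, plus strand, 2 overlapping ISRE: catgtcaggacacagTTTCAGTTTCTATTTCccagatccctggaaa
Gbp7, chr3:142530215-142530307, plus strand, 2 GAS and 1 ISRE: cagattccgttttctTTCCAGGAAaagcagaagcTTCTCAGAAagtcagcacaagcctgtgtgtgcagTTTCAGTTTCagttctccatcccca
Irgm1, chr11:48871421-48871465, minus strand, 2 overlapping ISRE: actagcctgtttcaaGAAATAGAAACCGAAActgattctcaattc
Irgm2, chr11:58214887-58214937, plus strand, 1 GAS and 1 ISRE: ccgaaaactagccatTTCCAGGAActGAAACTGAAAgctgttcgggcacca
Igtp, chr11:58199496-58199546, plus strand, 1 GAS and 1 ISRE: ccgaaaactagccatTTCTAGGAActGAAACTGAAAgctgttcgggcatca
The Irgm2 and Igtp stretches differed at 2 of 51 positions, and in both the bases ct stood between a GAS match and the ISRE match after it. The Irgm2 window (58214727 to 58215026) follows a RefSeq start that lies inside the gene span given above and not at its beginning. A match describes letters in a window and does not show that a factor binds there.

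Doxorubicin-treated tumours had higher levels of these GTPases than untreated tumours in all 3 genotypes. In p21-null mice 8 of 8 rose, by 2.01-fold (Gbp9) to 3.96-fold (Igtp). In p53-null mice 8 of 8 rose, by 2.10-fold (Irgm1) to 3.15-fold (Irgm2). In wild-type mice 5 of 8 rose (Gbp2, Gbp3, Irgm2, Igtp and Ifi47), by 2.16-fold to 2.67-fold, and Gbp7, Gbp9 and Irgm1 did not pass at 1.67-fold, 1.78-fold and 1.66-fold. Each fold is of log2(rescaled TPM + 1), which understates changes of low genes, and called genes are those with an adjusted p under 0.05 in limma's moderated test over all 14928 genes. The share of all tested genes called higher was 5.00% in p21-null, 1.17% in p53-null and 3.73% in wild-type mice. The median log2 fold change of the 8 members was 1.68, 1.54 and 1.15 in these genotypes, and that of all tested genes was -0.09, 0.05 and 0.04. In bulk tumour RNA, a change in the number of cells that express a gene and a change in RNA per cell cannot be told apart.

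**Figure D1:**
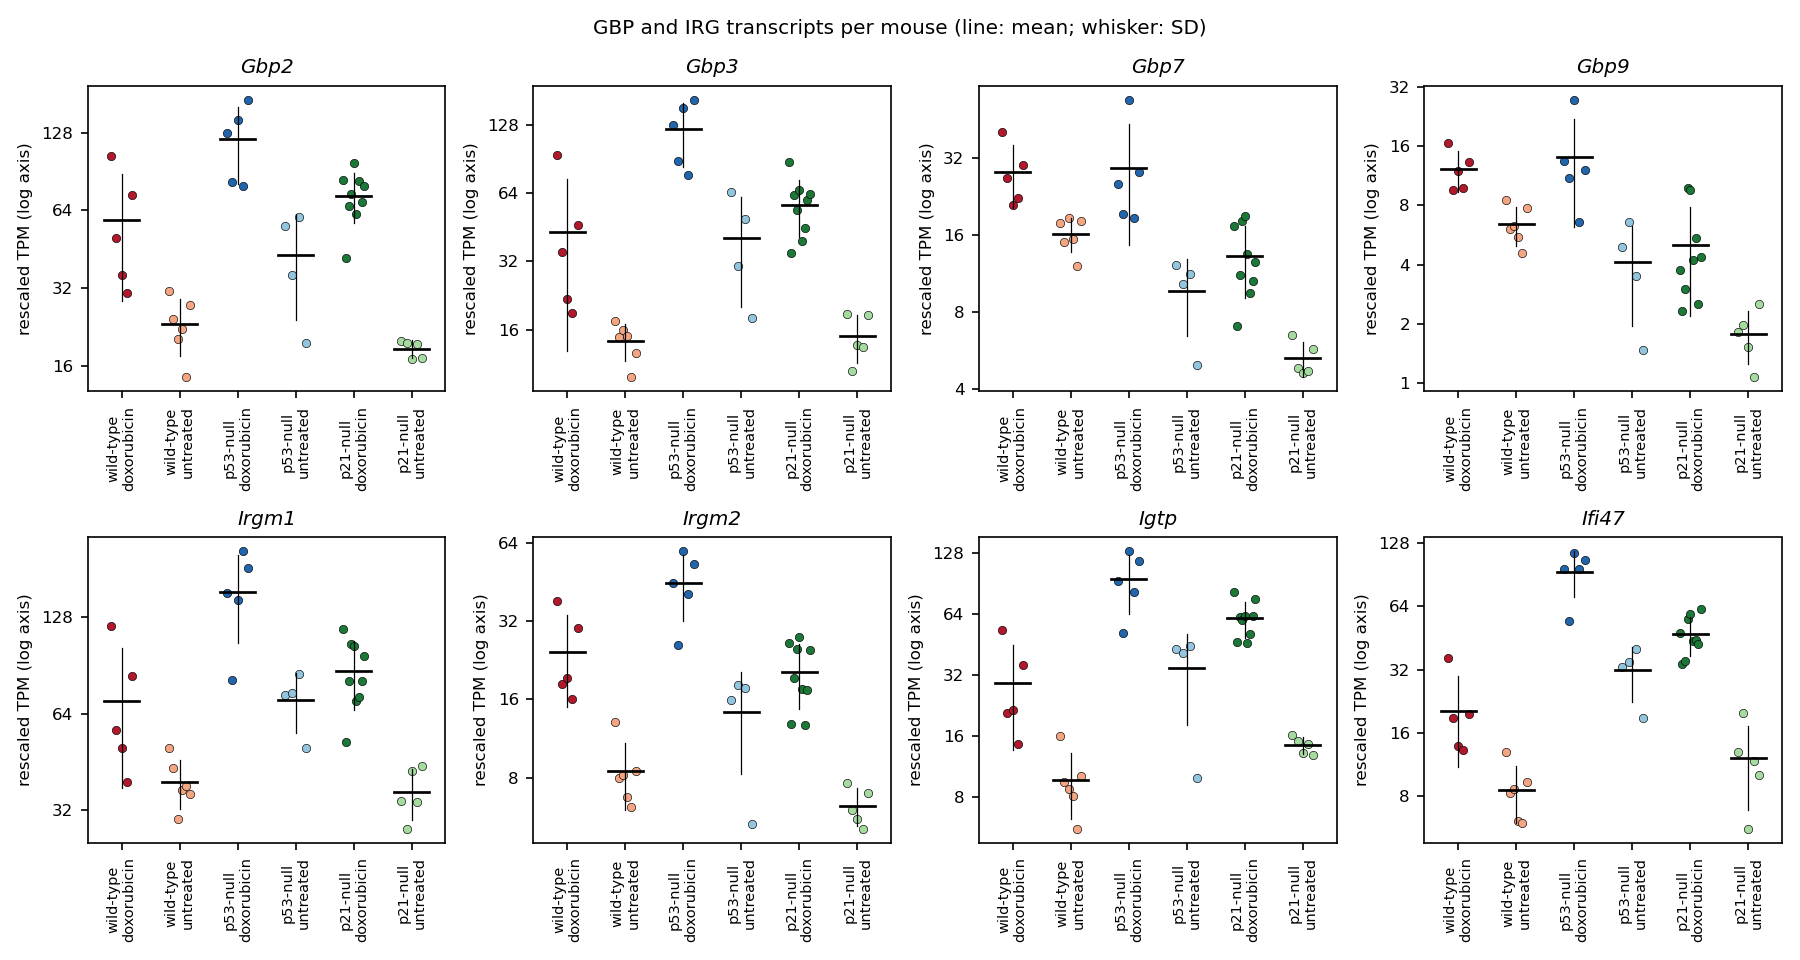
Rescaled TPM (log axis) of the 8 measured GBP and IRG genes in each mouse, with doxorubicin left of untreated for wild-type, p53-null and p21-null mice; lines are group means and whiskers SD. For every gene the doxorubicin-treated p53-null mice have the highest mean of the 6 groups. For Gbp7 that mean is 29.2, against 28.2 in treated wild-type mice, and the medians (25.5 and 26.8) run the other way.

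Among the GBP genes, Gbp2 encodes a GTPase that coats pathogen vacuoles. It measured 30.8, 35.9, 49.98, 73.2 and 104 rescaled TPM in doxorubicin-treated wild-type mice, against a lowest of 14.5, a median of 23.3 and a highest of 31.1 in the 6 untreated wild-type mice. In p53-null mice it measured 79.8, 82.2, 128, 143 and 171 after doxorubicin, against 19.7, 35.9, 55.9 and 60.4 untreated. In the 9 doxorubicin-treated p21-null mice it ran from 42.0 through a median of 74.0 to 97.7, against 17.0, 17.2, 19.5, 19.7 and 20.1 untreated. The groups were apart in both null genotypes, and in wild-type mice only the lowest treated mouse fell inside the untreated range. The log2 fold change was 1.19 ± 0.27 (SE) in wild-type (adjusted p = 0.00679), 1.53 ± 0.30 in p53-null (adjusted p = 0.00450) and 1.88 ± 0.25 in p21-null mice (adjusted p = 3.14e-06).

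Gbp3, a neighbour of Gbp2 and a GBP of the same family, rose in all 3 genotypes as well. It averaged 43.3 ± 30.4 rescaled TPM in doxorubicin-treated and 14.3 ± 2.68 in untreated wild-type mice (SD, n = 5 and 6), and 122 ± 38.5 in treated and 40.8 ± 20.7 in untreated p53-null mice (n = 5 and 4). In p21-null mice the means were 57.0 ± 16.0 after doxorubicin and 14.99 ± 3.55 untreated (n = 9 and 5). Treated and untreated values did not overlap in any genotype. The log2 fold changes were 1.32 ± 0.31, 1.65 ± 0.35 and 1.84 ± 0.29 in wild-type, p53-null and p21-null mice, with adjusted p of 0.00925, 0.00746 and 3.91e-05. One mouse weighed on the wild-type result: with treated mouse p53WT_Doxo_1127 (94.0 rescaled TPM) left out, the change was 0.98 and the adjusted p 0.0541.

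Gbp7, a GBP of the same cluster, and Gbp9 on chromosome 5 had lower mean levels than Gbp2 and Gbp3, except in untreated wild-type mice, where Gbp7 averaged 16.2 rescaled TPM and Gbp3 14.3. Gbp7 averaged 28.2 ± 7.80 rescaled TPM in treated and 16.2 ± 2.52 in untreated wild-type mice, a log2 change of 0.74 ± 0.24 (adjusted p = 0.0737). In null mice it ran from 18.6 to 54.2 in treated and from 4.94 to 12.2 in untreated p53-null mice (1.46 ± 0.27, adjusted p = 0.00233), and from 7.03 to 19.0 in treated and from 4.61 to 6.50 in untreated p21-null mice (1.13 ± 0.22, adjusted p = 0.000803). The treated and untreated mice were apart in all 3 genotypes, although the wild-type change did not pass. Gbp9 ran from 9.58 to 16.6 in treated and from 4.56 to 8.51 in untreated wild-type mice, with a change of 0.83 ± 0.30 that did not pass (adjusted p = 0.110). Fitted on the wild-type mice alone, both passed (adjusted p = 0.0222 for Gbp7 and 0.0154 for Gbp9), and Gbp7 also passed with a pseudocount of 5 (adjusted p = 0.0468). The Gbp9 changes in p53-null and p21-null mice were 1.55 ± 0.34 (adjusted p = 0.0104) and 1.01 ± 0.28 (adjusted p = 0.0187). Gbp9 was the lowest of the 8 members in 34 of 34 mice, with 2.34 to 9.82 in treated and 1.07 to 2.51 in untreated p21-null mice, ranges that overlapped. Its p21-null call was lost without untreated mouse p21null_Untreated_4536 (0.98, adjusted p = 0.0543) or p21null_Untreated_4555 (0.91, adjusted p = 0.0527), and with a pseudocount of 5 (0.52, adjusted p = 0.0679).

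Among the IRG genes, Irgm1, a regulator of the IRG effectors, was the most abundant per transcript length, and it was the highest of the 8 members in 31 of 34 mice. It averaged 70.1 ± 32.7 rescaled TPM in treated and 39.1 ± 6.89 in untreated wild-type mice, 153 ± 46.8 in treated and 70.7 ± 14.9 in untreated p53-null mice, and 86.8 ± 20.8 in treated and 36.5 ± 6.64 in untreated p21-null mice. Its log2 changes were among the smallest of the 8: 0.73 ± 0.23 in wild-type (adjusted p = 0.0665), 1.07 ± 0.26 in p53-null (adjusted p = 0.0243) and 1.21 ± 0.22 in p21-null mice (adjusted p = 0.000270). Irgm1 overlapped between treated and untreated wild-type and p53-null mice but not p21-null mice. Its p53-null call was lost with the 40 tumours as separate samples (0.87, adjusted p = 0.0858), without untreated mouse p53null_Untreated_881 (0.91, adjusted p = 0.147) or p53null_Untreated_2119 (1.10, adjusted p = 0.0559), or without treated mouse p53null_Doxo_2237 (1.05, adjusted p = 0.0636), p53null_Doxo_2769 (0.95, adjusted p = 0.0580) or p53null_Doxo_2771 (0.99, adjusted p = 0.0801). In wild-type mice it passed only without treated mouse p53WT_Doxo_824 (0.91, adjusted p = 0.0205).

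Irgm2 and Igtp, 2 further IRGM-type regulators whose promoters were printed above, rose in all 3 genotypes. Irgm2 measured 16.0, 18.4, 19.3, 30.2 and 38.1 rescaled TPM in treated wild-type mice, against 6.17 to 13.1 with a median of 8.07 in the untreated ones. In p53-null mice it measured 25.8, 40.8, 44.7, 53.2 and 59.2 after doxorubicin, against 5.32, 15.9, 17.7 and 18.2 untreated. In p21-null mice it ran from 12.7 through a median of 19.3 to 27.8 after doxorubicin, against 5.08, 5.53, 6.00, 6.96 and 7.64 untreated. No treated mouse overlapped an untreated mouse of its genotype. The log2 changes were 1.39 ± 0.26, 1.66 ± 0.29 and 1.53 ± 0.24 in wild-type, p53-null and p21-null mice, with adjusted p of 0.000883, 0.00173 and 4.97e-05.

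Igtp measured 14.6, 20.98, 21.6, 36.1 and 53.5 rescaled TPM in treated wild-type mice, against 5.60 to 16.0 with a median of 9.16 in the untreated ones. In p53-null mice it measured 51.8, 82.9, 93.3, 117 and 131 after doxorubicin, against 9.97, 41.3, 43.3 and 44.4 untreated. In p21-null mice it ran from 46.1 through a median of 62.2 to 82.2 after doxorubicin, against 12.9, 13.3, 14.6, 15.2 and 16.3 untreated. Only in wild-type mice did a treated value (14.6) fall inside the untreated range, and untreated p53-null mouse p53null_Untreated_881 stood well below the other 3. The log2 changes were 1.42 ± 0.30 in wild-type, 1.56 ± 0.34 in p53-null and 1.99 ± 0.28 in p21-null mice, with adjusted p of 0.00364, 0.0102 and 8.17e-06.

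Ifi47 encodes a further IRG protein and was the member whose promoter window held neither motif. It measured 13.2, 13.8, 18.9, 19.8 and 36.2 rescaled TPM in treated wild-type mice, against 5.98 to 13.0 with a median of 8.44 in the untreated ones. In p53-null mice it measured 54.6, 96.4, 96.6, 107 and 115 after doxorubicin, against 18.8, 32.8, 34.9 and 40.3 untreated. In p21-null mice it ran from 34.1 through a median of 44.2 to 62.1 after doxorubicin, against 5.59, 10.1, 11.8, 13.0 and 20.0 untreated. The groups did not overlap in any genotype. Its log2 changes were 1.11 ± 0.26 (adjusted p = 0.00755), 1.54 ± 0.29 (adjusted p = 0.00244) and 1.95 ± 0.24 (adjusted p = 6.70e-07).

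**Figure D2:**
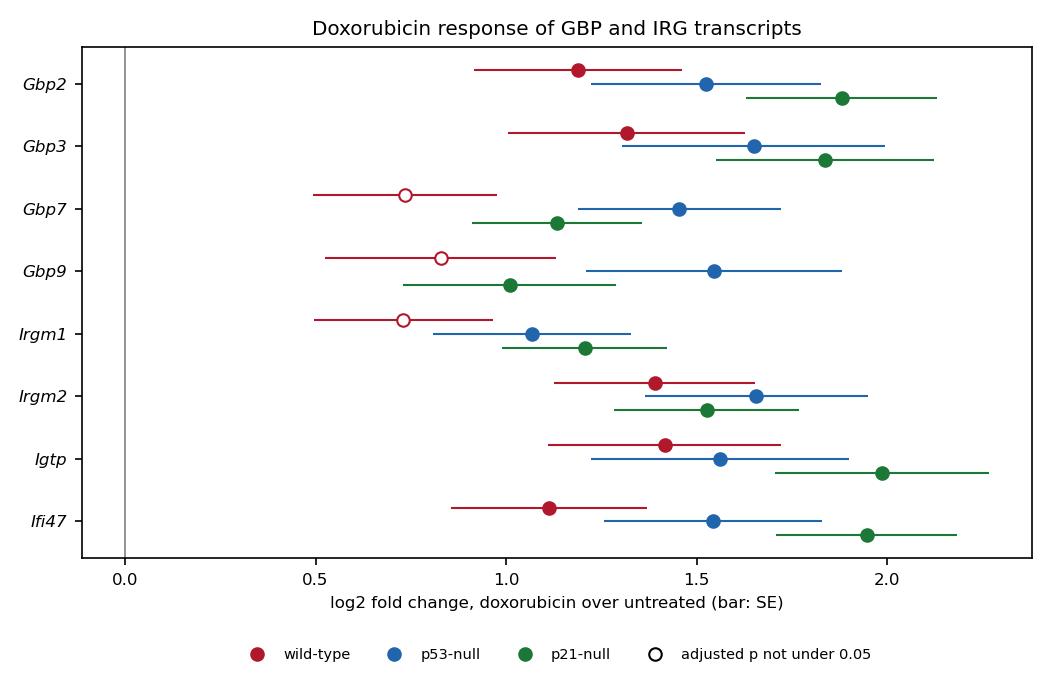
Log2 fold change of doxorubicin over untreated for the 8 genes in wild-type, p53-null and p21-null mice, with bars of 1 SE from limma and open points where the adjusted p was not under 0.05. All 24 values lie above 0, between 0.73 and 1.99, and the 3 open points are Gbp7, Gbp9 and Irgm1 in wild-type mice.

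Counted over members, treated and untreated mice did not overlap for 7 of 8 in p21-null, 7 of 8 in p53-null and 5 of 8 in wild-type mice, against 3.04%, 2.32% and 4.52% of all tested genes with every treated mouse above every untreated one. For all 8 members, every treated mouse lay above the untreated mean of its genotype. The share of all tested genes that meet this looser criterion was not computed. Two-sided exact permutation tests over mice on single members gave p from 0.000999 to 0.00200 in p21-null, from 0.0159 to 0.0318 in p53-null and from 0.00433 to 0.0217 in wild-type mice, where the smallest p these group sizes allow is 0.000999, 0.0159 and 0.00433. Fitted on the 9 p53-null mice alone, with the same log2 changes (1.07 to 1.66), 0 of 8 members passed in limma (adjusted p from 0.177 to 0.390), with 8 of 8 at an unadjusted p under 0.05, and 1 gene passed in all. The cause of this loss was not tested. Without untreated p53-null mouse p53null_Untreated_881, the lowest of its group for 8 of 8 members, 4 of 8 passed (Gbp2, Gbp7, Irgm2 and Ifi47). On TPM as deposited, 0 of 8 members passed in wild-type mice (log2 changes from 0.40 to 0.93, adjusted p from 0.0853 to 0.946), with 7 of 8 at an unadjusted p under 0.05.

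Whether the response differed by genotype was tested as a difference of treatment effects, in which the kit cancels only as far as it acts alike on treated and untreated tumours. None of the 8 members passed in limma (0 of 8) for p53-null minus wild-type, p21-null minus wild-type or p21-null minus p53-null, where 0.744%, 0.0804% and 0.690% of all tested genes passed in either direction. The differences ran from 0.14 (Igtp) to 0.72 (Gbp7) for p53-null minus wild-type and from 0.14 (Irgm2) to 0.83 (Ifi47) for p21-null minus wild-type on the log2 scale, with adjusted p of at least 0.462 and 0.553. For p21-null minus p53-null they ran from -0.54 (Gbp9) to 0.43 (Igtp), with adjusted p of at least 0.607. At an unadjusted p under 0.05 there were 0, 1 (Ifi47) and 0 of 8 members, against 11.1%, 8.94% and 14.0% of all tested genes. The 95% intervals were wide. For Ifi47, p21-null minus wild-type, the interval ran from 0.12 to 1.55, and for Gbp9, p21-null minus p53-null, from -1.43 to 0.36. In Igtp the p53-null minus wild-type difference turned to -0.36 without mouse p53null_Untreated_881.

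The 2 null genotypes share a kit, so kit does not separate their levels, although the labels do not say whether batches were shared. After doxorubicin, 7 of 8 members were lower in p21-null than in p53-null mice, while 20.0% of all tested genes were called lower in that comparison. The median log2 difference of all tested genes there was -0.15. The means in treated p21-null and treated p53-null mice were 73.1 and 121 rescaled TPM for Gbp2, 57.0 and 122 for Gbp3, 13.2 and 29.2 for Gbp7, and 5.01 and 14.1 for Gbp9. For the IRG genes they were 86.8 and 153 for Irgm1, 20.4 and 44.7 for Irgm2, 61.1 and 95.1 for Igtp, and 47.1 and 93.8 for Ifi47. The log2 differences of the 7 ran from -1.32 ± 0.28 (Gbp9, adjusted p = 0.00136) to -0.69 ± 0.25 (Gbp2, adjusted p = 0.0428), and Igtp did not pass at -0.59 ± 0.28 (adjusted p = 0.119). Individual mice overlapped between the genotypes for 8 of 8 members. The Gbp2 call was lost under 5 of 11 other settings and without any one of 8 of the 14 mice, among them treated p53-null mouse p53null_Doxo_2771 (-0.54, adjusted p = 0.134). Markers of other cells were also called in this comparison, where 2991 of 14928 tested genes were lower in treated p21-null mice and 869 higher. Of the markers, 6 of 9 endothelial, 2 of 12 T cell and 2 of 7 dendritic cell ones were lower in p21-null mice. The T cell and dendritic cell counts were near the 20.0% of all tested genes. Higher in p21-null mice were 5 of 12 macrophage, 1 of 6 neutrophil and 1 of 7 basal epithelial markers. The part of these markers in the result was not tested.

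Untreated p21-null mice were also below untreated p53-null mice in the mean of each member. Only Ifi47 passed (1 of 8, where 1.05% of all tested genes were called lower), at 12.1 ± 5.23 rescaled TPM in p21-null and 31.7 ± 9.15 in p53-null mice and a log2 difference of -1.37 ± 0.28 (adjusted p = 0.00767), and with individual mice that overlapped. For the other 7 the differences ran from -1.26 (Gbp3, adjusted p = 0.0508) to -0.71 (Gbp7, adjusted p = 0.165). This count depended on the settings, among them the scale and how tumours entered the fit. With the 40 tumours as separate samples 6 of 8 members passed, but that fit takes 2 tumours of 1 mouse as independent. Without untreated p53-null mouse p53null_Untreated_881, 6 of 8 passed. On these 2 groups alone 0 of 8 passed in limma, where 8 of 8 had an unadjusted p under 0.05. Of the T cell markers, 1 of 12 was lower in untreated p21-null than in untreated p53-null mice, with a list median of -0.59. The other cell lists had no called marker, with medians from -0.30 (endothelium) to 0.42 (luminal cells). Their part in the levels of the members was not tested.

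Ordered by group mean, treated p53-null mice stood highest for 8 of 8 members. For Gbp7 the means were close, at 29.2 in treated p53-null and 28.2 in treated wild-type mice, which differ in kit. Its medians ran the other way, at 25.5 and 26.8. The lowest mean was in untreated p21-null mice for 5 members and in untreated wild-type mice for the other 3. These 2 groups differ in kit, and that split holds on rescaled TPM: p21-null minus wild-type turned positive for 3 of the 5 with median-of-ratios scaling (Gbp2, Irgm1 and Irgm2) and for 5 of 5 on TPM as deposited. The deposited scale raises null minus wild-type by itself, through the smaller protein-coding share of wild-type tumours. For Gbp2 the order ran from treated p53-null (121) through treated p21-null (73.1), treated wild-type (58.8), untreated p53-null (43.0) and untreated wild-type (23.4) to untreated p21-null mice (18.7). The last 2 groups did not differ beyond their spread (adjusted p = 0.394), and their order turned with median-of-ratios scaling (0.22) and on TPM as deposited (2.40). The order was not the same for every member: for Gbp7, Gbp9 and Irgm2, treated p21-null mice, at 13.2, 5.01 and 20.4, stood below treated wild-type mice, at 28.2, 12.2 and 24.4, groups that also differ in kit.

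Comparisons of untreated null with untreated wild-type mice also compare library kits. On the rescaled values the median log2 difference of all tested genes was -0.39 for p53-null minus wild-type and -0.42 for p21-null minus wild-type, and 61.0% and 63.0% of all tested genes were called in either direction. Of the members, 6 of 8 were called for p53-null minus wild-type: Ifi47 (1.77 ± 0.27), Igtp (1.59 ± 0.33), Gbp3 (1.32 ± 0.33), Irgm1 (0.83 ± 0.25) and Gbp2 (0.77 ± 0.29) were higher and Gbp7 (-0.74 ± 0.26) was lower in p53-null mice. For p21-null minus wild-type, 2 of 8 were called, Gbp7 (-1.46 ± 0.24) and Gbp9 (-1.42 ± 0.30), both lower in p21-null mice. Both directions depend on the scale: on TPM as deposited the p21-null differences of Gbp7 and Gbp9 were 1.09 and 0.62, and that of Gbp7 in p53-null mice was 1.76. Protein-coding genes hold a far smaller share of the deposited TPM in wild-type than in null tumours. That share by itself raises null minus wild-type on the deposited scale, so the signs there do not check the direction. The p53-null call of Gbp7 was also lost with median-of-ratios scaling (-0.30, adjusted p = 0.248) and without mouse p53null_Untreated_881 (-0.48, adjusted p = 0.118).

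Within groups, the members' deviations correlated from mouse to mouse. Over the 34 mice, Pearson's r between the deviations of 2 members from their group means ran from 0.36 (Gbp9 with Irgm1) to 0.92 (Irgm2 with Igtp, which share sequence), with a median of 0.73 over 28 pairs. These are descriptions, since members share each library and its rescaling. The medians were 0.75 among GBP genes, 0.76 among IRG genes and 0.70 between the families. Single mice were at the extreme of their group for most members: treated wild-type mouse p53WT_Doxo_1127 was the highest for 8 of 8 and untreated p53-null mouse p53null_Untreated_881 the lowest for 8 of 8. In untreated wild-type mice, p53WT_Untreated_1178 was the highest for 7 of 8 and p53WT_Untreated_996 the lowest for 7 of 8. Treated p21-null mouse p21null_Doxo_4132 was the lowest for 6 of 8. The share of the spread that single mice account for was not computed. The median SD of the members on the log2 scale was 0.59 in treated and 0.31 in untreated wild-type mice, 0.50 in treated and 0.71 in untreated p53-null mice, and 0.38 in treated and 0.23 in untreated p21-null mice, where the median SD of all tested genes was between 0.19 and 0.29.

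The genes whose deviations were most like the mean of the members' scaled deviations, over the same 34 mice and among 14920 other genes, were Herc6 (r = 0.96), Parp14 (0.95), Parp12 (0.93), Ddx58 (0.93), Trim34a (0.93) and Ddx60 (0.92). The median gene had r = 0.19 and the 90th percentile was 0.47. Herc6 encodes an E3 ligase for the ubiquitin-like protein ISG15 in the mouse, Parp14 and Parp12 encode ADP-ribosyltransferases, and Ddx58 encodes the RNA sensor RIG-I. Mx1 ranked 7 (r = 0.91), Ifit3 ranked 13 (0.89), Irf7 ranked 47 (0.78) and Irf1 ranked 150 (0.65). The chemokine genes Cxcl10 and Cxcl9 ranked 360 (0.59) and 3675 (0.36). The genes from Mx1 on were looked up by name and not taken by rank.

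There were 6 mice with 2 tumours each, and the members differed between tumours of 1 mouse. In a treated p53-null mouse, all 8 members were higher in tumour p53null_Doxo_2551rc than in tumour p53null_Doxo_2551, by 1.21 (Irgm1) to 2.06 on the log2 scale with a median of 1.75, where the median of all genes was 0.21. Gbp2 measured 153 rescaled TPM in the higher and 44.0 in the lower of these tumours, and Ifi47 measured 113 and 26.2. Markers of immune cells moved with this: their sums in the same order were 164 and 36.2 rescaled TPM for T cells, 68.4 and 19.5 for NK and cytotoxic cells, 4050 and 1026 for macrophages, and 119.8 and 6.21 for B cells, and their part in the result was not tested. In the other 5 mice, the median member difference (the tumour with a letter suffix in its title minus the one without) was 0.86 in p53null_Untreated_1556, 0.42 in p21null_Untreated_4116, -0.18 in p53null_Untreated_2493, -0.42 in p53WT_Doxo_1475 and -0.46 in p21null_Doxo_4439. Marker sums did not always go the way of the members. In p53WT_Doxo_1475 all 8 members were lower in the tumour with the suffix, whose sums were higher: 31.6 and 22.7 rescaled TPM for T cells (tumour with and without the suffix), 17.96 and 10.5 for NK and cytotoxic cells, 4455 and 2832 for macrophages, and 192 and 84.8 for neutrophils. In the same order the macrophage sums were 1939 and 909.5 in p53null_Untreated_1556, 1661 and 1634 in p21null_Untreated_4116, 1253 and 2143 in p53null_Untreated_2493, and 1947 and 3762 in p21null_Doxo_4439. With the lower tumour of the first pair (p53null_Doxo_2551) left out, 8 of 8 members passed in p53-null mice, with changes from 1.19 to 1.81. This setting was chosen after the values were seen. It could only enlarge the changes, since all 8 members were lower in that tumour, and so does not check the result. The fit without the higher tumour was not run.

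**Figure D3:**
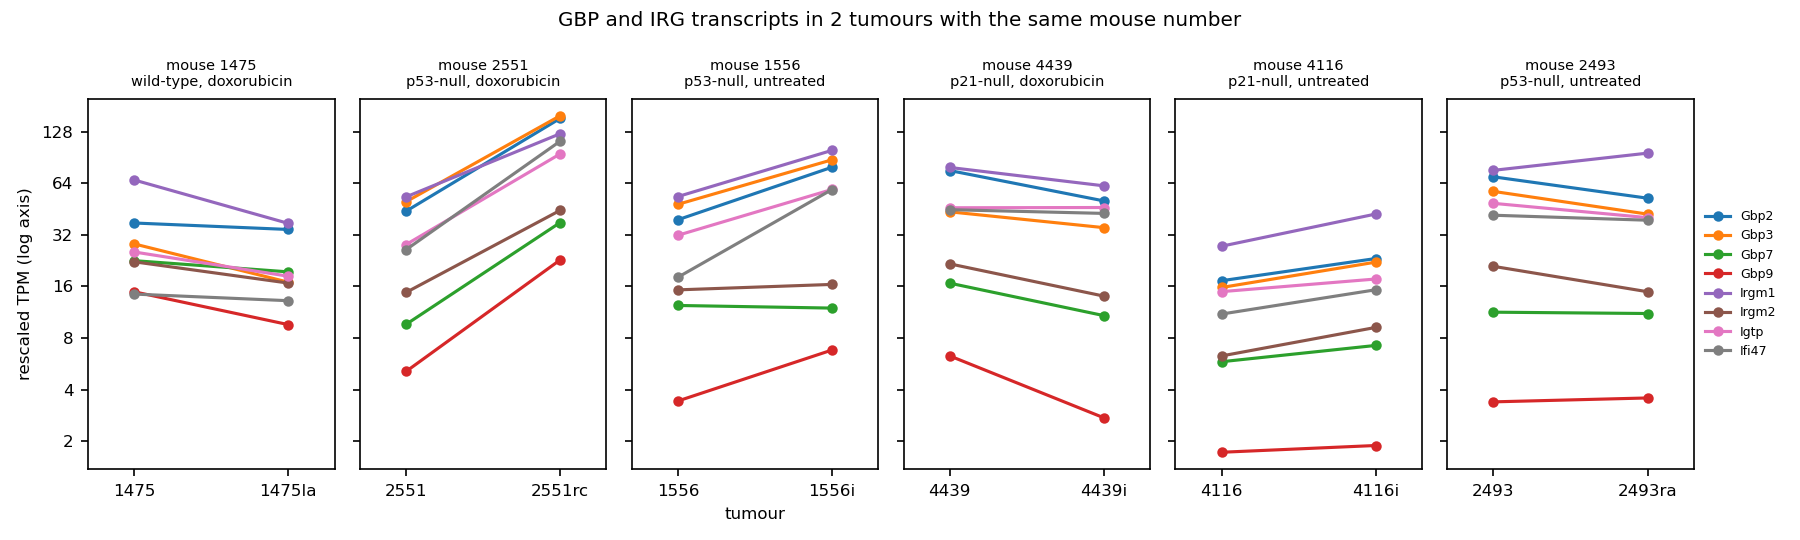
Rescaled TPM (log axis) of the 8 genes, 1 line each, in the 2 tumours of each of 6 mice, with genotype and treatment above each panel. All 8 lines climb from tumour p53null_Doxo_2551 to tumour p53null_Doxo_2551rc of the same treated p53-null mouse.

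Other genes of the 2 families were followed as a list of 15, of which 11 could be tested. In p21-null mice 8 of 11 rose and none fell, in p53-null mice 6 of 11 rose, and in wild-type mice 2 of 11 rose, with median log2 changes of 1.27, 1.18 and 0.61. Iigp1, an IRG effector on chromosome 18 that loads onto Toxoplasma vacuoles, rose in all 3 genotypes, to 52.1 ± 17.7 rescaled TPM in treated against 11.4 ± 3.6 in untreated p21-null mice (2.07 ± 0.35, adjusted p = 0.000139), with changes of 2.04 ± 0.42 in p53-null and 1.28 ± 0.38 in wild-type mice. Gm4951 rose in all 3 as well, by 1.27, 1.90 and 1.13. The effector genes Tgtp1 and Tgtp2 rose in p21-null (2.05 and 1.96) and p53-null mice (1.71 and 1.58), with 0.90 and 0.77 in wild-type mice that did not pass. Gbp4 rose in both null genotypes by 1.18, with 0.60 in wild-type mice. Gbp2b (1.58), Gbp8 (1.08) and Gvin1 (1.35), which encodes a very large inducible GTPase, rose in p21-null mice and had values of 1.20, 0.90 and 1.17 in p53-null mice that did not pass. Gm12185 rose in p53-null mice (0.70) and had values of 0.22 in p21-null and 0.18 in wild-type mice that did not pass, and F830016B08Rik and Irgq, an IRG relative, passed in none. Tgtp1 and Tgtp2 are near copies, as are other genes of these clusters, and their values share that uncertainty.

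**Figure D4:**
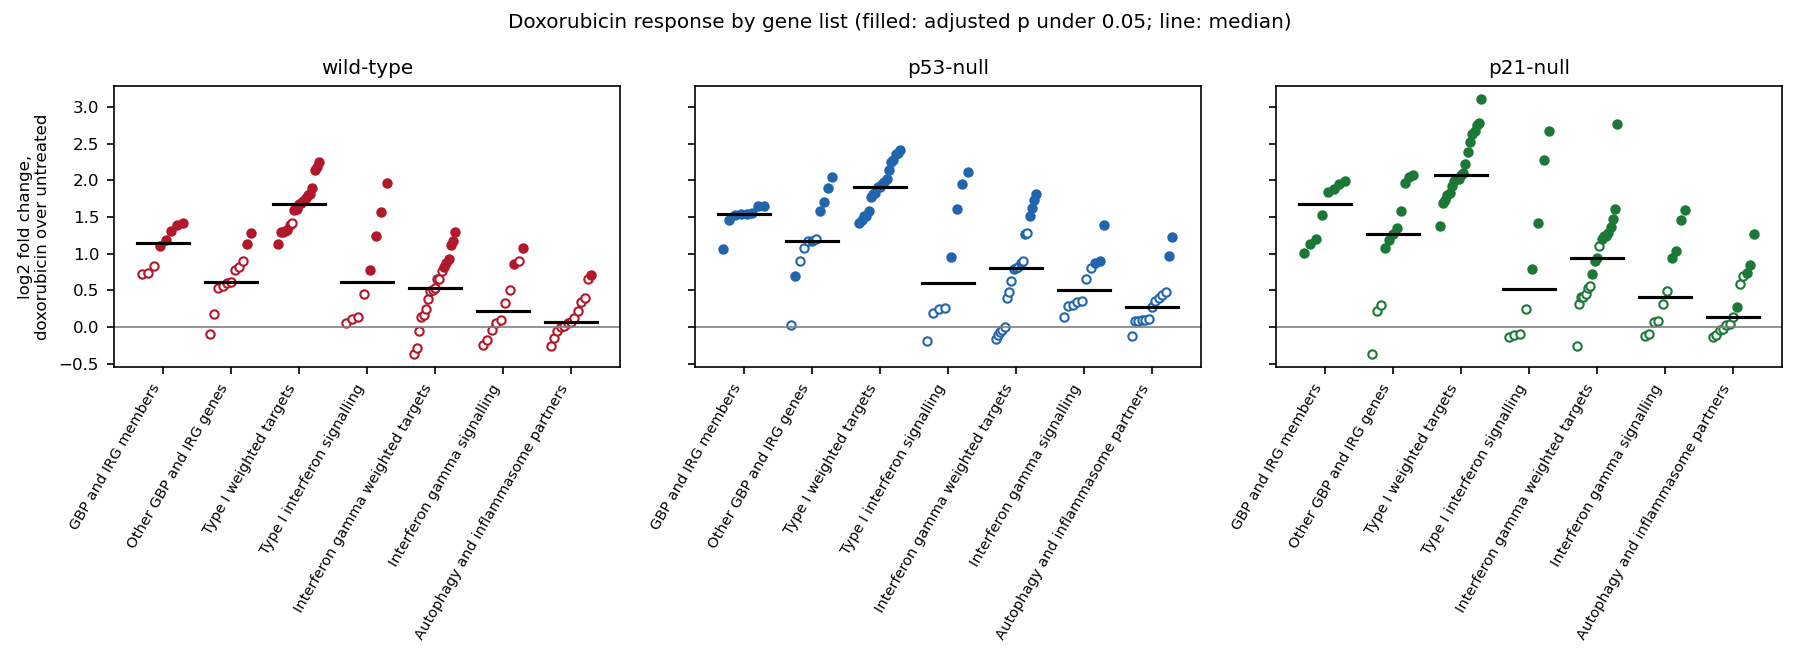
Log2 fold change of doxorubicin over untreated for the 8 members and for the genes of 6 related lists, in wild-type, p53-null and p21-null mice; filled points passed an adjusted p of 0.05 in limma and lines are list medians. The type I weighted targets have the highest median in each genotype, 1.68, 1.91 and 2.07, and the members the next highest, 1.15, 1.54 and 1.68.

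Upstream genes of interferon gamma signalling moved in part. Of 10 tested, 4 rose in p21-null, 3 in p53-null and 2 in wild-type mice, and none fell, with medians of 0.41, 0.50 and 0.21. Batf2, a transcription factor gene, rose in all 3 genotypes (1.04, 0.90 and 0.86). Irf1 rose in p53-null mice (0.87 ± 0.21, adjusted p = 0.0223) and did not pass in p21-null (0.49, adjusted p = 0.0707) or wild-type mice (0.51, adjusted p = 0.118). Nlrc5, an activator of MHC class I genes, and Socs1, a feedback inhibitor of JAK kinases, rose in p21-null mice (1.46 and 0.94). Ifng itself was below the filter, at means of 0.218 ± 0.104 in treated and 0.113 ± 0.0904 in untreated p21-null mice, 0.377 ± 0.278 in treated and 0.172 ± 0.131 in untreated p53-null mice, and 0.157 ± 0.148 in treated and 0.0187 ± 0.0457 in untreated wild-type mice. Rescaling enlarges small deposited values and their rounding steps more in wild-type than in null tumours. Ifng was not tested, and no change is read from these values.

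Targets weighted towards interferon gamma rose in part. Of 19 tested, 11 rose in p21-null, 6 in p53-null and 6 in wild-type mice, and none fell, with medians of 0.94, 0.80 and 0.53. Cxcl10, a T cell chemokine that type I interferon also induces, rose in all 3 genotypes, by 2.76 ± 0.28, 1.74 ± 0.34 and 1.29 ± 0.31, and Cd274, which encodes the checkpoint ligand PD-L1, rose by 1.28, 1.26 and 0.87. Tap1, a peptide transporter for MHC class I, rose in p21-null (1.48) and wild-type mice (1.17), with 0.63 in p53-null mice that did not pass. Icam1, an adhesion molecule, rose in p21-null (0.72) and wild-type mice (1.12), and Fcgr1, an antibody receptor that is also one of the macrophage markers used, rose in the same genotypes (1.61 and 0.92). Cxcl9 rose in p21-null (1.20) and p53-null mice (1.63), as did the immunoproteasome subunit Psmb10 (0.90 and 0.87). The 5 genes of MHC class II presentation in this list passed in none of the 3 genotypes. In each genotype 0 of 5 had an unadjusted p under 0.05 in limma.

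Genes of type I interferon signalling rose in part and nearly all its targets rose. Of the 8 tested signalling genes, the same 4 rose in each genotype: Stat2 (1.41, 1.61 and 1.25 in p21-null, p53-null and wild-type mice), Irf9 (0.80, 0.95 and 0.77), Irf7, which amplifies the response (2.68, 2.11 and 1.97), and Usp18, a feedback inhibitor (2.27, 1.95 and 1.57). Of 19 targets weighted towards type I interferon, 19 rose in p21-null, 19 in p53-null and 18 in wild-type mice, with medians of 2.07, 1.91 and 1.68. Ifit3, an RNA-response gene, rose by 3.11 ± 0.32, 2.36 ± 0.38 and 2.25 ± 0.34, and Mx1, an antiviral dynamin-like GTPase related to the GBP proteins, by 2.76 ± 0.30, 2.14 ± 0.36 and 1.59 ± 0.32. Ifit1 rose by 2.78, 2.42 and 2.18, Ifit2 by 1.80, 1.82 and 1.14, and Ifi27l2a by 2.63, 1.77 and 1.79. Oas3 and Oasl2, of the oligoadenylate synthetase family of antiviral genes, rose by 1.92, 2.38 and 1.29 and by 2.22, 1.90 and 2.15, and Rtp4 by 1.83, 1.51 and 1.81. Oas2 was the target that did not pass in wild-type mice (1.42, adjusted p = 0.0731). Ddx60 stands both in this list and among the 6 genes most like the members. Ifnb1 was below the filter, at means of 0.284 ± 0.158 in treated and 0.0775 ± 0.0827 in untreated p21-null mice, and 0.387 ± 0.228 in treated and 0.128 ± 0.119 in untreated p53-null mice. It was listed at 0 in all 5 treated wild-type mice and was above 0 in 1 of 6 untreated ones. Ifnb1 was not tested, and a listed 0 does not show absence of the transcript.

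Partners through which GBP and IRG proteins act, the autophagy conjugation genes and the inflammasome genes, rose in part. Of 13 tested, 4 rose in p21-null (Casp4, Gsdmd, Casp1 and Atg3), 2 in p53-null (Casp1 and Casp4) and 1 in wild-type mice (Gsdmd), with medians of 0.13, 0.27 and 0.08. Casp4, the caspase that senses cytosolic lipopolysaccharide that GBP proteins make accessible, rose to 21.1 ± 6.71 rescaled TPM in treated against 7.85 ± 1.64 in untreated p21-null mice (1.27 ± 0.22, adjusted p = 0.000137) and by 1.23 ± 0.26 in p53-null mice (adjusted p = 0.00814), with 0.66 in wild-type mice (adjusted p = 0.0988). Gsdmd, the pore-forming protein it cleaves, rose by 0.84 in p21-null and 0.71 in wild-type mice. Casp1, the inflammasome caspase, rose by 0.73 in p21-null and 0.98 in p53-null mice, and Atg3, a conjugation enzyme of autophagy, by 0.27 in p21-null mice. Atg5, Atg7, Atg12 and Atg16l1 passed in no genotype.

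Markers of other cells moved with the treatment in part, and their part in the results on the members was not tested. Of 12 macrophage markers, 6 rose in p21-null, 0 in p53-null and 5 in wild-type mice in limma, where the p53-null count at an unadjusted p under 0.05 was 1. Their summed level ran from 1795 to 4755 rescaled TPM in treated and from 1235 to 2040 in untreated p21-null mice, from 723 to 3077 in treated and from 1319 to 1774 in untreated p53-null mice, and from 1858 to 3495 in treated and from 1221 to 1728 in untreated wild-type mice. The T cell markers were low throughout. Of 12, 3 rose in p21-null mice (sums of 15.1 to 58.2 in treated and 13.8 to 19.4 in untreated mice) and 0 in p53-null (25.6 to 79.7 in treated and 27.0 to 54.6 in untreated mice) and wild-type mice (22.9 to 35.4 in treated and 14.9 to 33.0 in untreated mice), with 10 of 12 at an unadjusted p under 0.05 in p21-null mice and 1 in each of the other 2 genotypes. Of 8 tested NK and cytotoxic markers, 3 rose in p21-null, 1 (Gzmb, 1.82 with an adjusted p of 0.0492) in p53-null and 0 in wild-type mice, with 7, 5 and 1 of 8 at an unadjusted p under 0.05 and medians of 0.83, 0.71 and 0.13. Their sums ran from 11.95 to 42.3 in treated and from 4.06 to 18.2 in untreated p21-null mice, from 8.78 to 78.9 in treated and from 12.6 to 17.7 in untreated p53-null mice, and from 13.5 to 34.8 in treated and from 8.37 to 19.9 in untreated wild-type mice. Of 6 tested neutrophil markers, 4 rose in p21-null, 0 in p53-null (also 0 at an unadjusted p under 0.05) and 1 in wild-type mice, and their sum reached 5340 rescaled TPM in 1 treated p21-null mouse. No marker of these lists was at 0 in every mouse of a group.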

How the data were processed

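RNA-seq of 40 tumours was analysed from 1 deposited table of gene-level TPM per tumour. The authors made the TPM with RSEM on mouse build mm10, per the submitters' processing notes, and Ensembl 79 gene models on GRCm38, per the file names. Neither the aligner nor the RSEM version is given in the sources used here. Per the labels' protocols, tumours were snap-frozen and pulverised for Trizol extraction, and libraries were TruSeq Stranded Total RNA for wild-type and TruSeq RNA v2 for null tumours. The authors' deposited TPM carry no depth, so no counting interval is given.

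Of 43346 identifiers, 42462 matched GENCODE M21. No 2 tables were identical (0 pairs). TPM were rescaled to a sum of 1000000 over 21461 nuclear protein-coding genes. Tumours of 1 mouse were averaged as log2(rescaled TPM + 1), which gave 34 mice, and genes at 1 or more in at least 4 mice were kept (14928). The 6 group means were fitted together in limma 3.58.1 (R 4.3.3, statmod 1.5.0; trended, robust moderation; 28 residual degrees of freedom), with Benjamini-Hochberg adjustment over all tested genes at 0.05. The fit was tested on simulated data. Exact permutation tests used scipy 1.17.1. Sequence words of 50 bases were compared between annotated transcripts. The labels do not say whether litters or batches were shared, and the tests take mice as independent. The limma p-values rest on 1 spread per gene, shared by the 6 groups and moderated across genes.

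The members and gene lists were chosen with earlier results of these data known. Genes named were all members, all other GBP and IRG genes, the 4 genes of smallest adjusted p per list and treatment test, Ifng and Ifnb1, and the 6 genes most like the members. A gene that this rule names is not reported here, though the list counts include it. Named outside it, after values were seen, were Oas2, Gzmb, Atg5, Atg7, Atg12 and Atg16l1, and the MHC class II genes as a group. Mx1, Ifit3, Irf7, Irf1, Cxcl10 and Cxcl9 were named outside it for their likeness ranks. Alternatives changed the scale, pseudocount, filter, treatment of tumours, moderation, samples fitted and single mice.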

Additional observations from a re-analysis of the deposited data

Results flagged for a closer look

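In each group of 4 to 9 mice, the highest and lowest value of each member were compared with the rest of the group by Dixon's ratio at its 95% critical value. This flagged 4 of 48 sets of values, where chance flags about 1 in 20. Gbp7 was at 54.2 rescaled TPM in doxorubicin-treated p53-null mouse p53null_Doxo_2688, above the other 4 mice of the group. Irgm2 was at 13.1 in untreated wild-type mouse p53WT_Untreated_1178, above the other 5. Igtp was at 9.97 in untreated p53-null mouse p53null_Untreated_881, below the other 3. Ifi47 was at 36.2 in doxorubicin-treated wild-type mouse p53WT_Doxo_1127, above the other 4.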

How the results depend on the processing

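Each comparison was repeated under 10 other settings, with each mouse left out in turn and, for p53-null doxorubicin mice, with 1 tumour left out. TPM carry no depth, so it is unknown which low values depth limits. No paired analysis was possible because the groups share no animal numbers. Members passing the treatment test numbered 7 of 8 to 8 of 8 in p21-null mice under every setting. In wild-type mice they numbered 0 of 8 on TPM as deposited, against 5 on rescaled TPM, and 4 to 6 with a mouse left out. In p53-null mice they numbered 0 of 8 with only the groups compared, against 8, and 4 to 8 with a mouse left out. For untreated p21-null minus p53-null, where 1 of 8 passed, 6 passed with 40 tumours as separate samples and 6 with a within-mouse correlation of 0.0151, 4 on TPM as deposited, 2 with a filter at 5, 5 with median-of-ratios scaling, 0 with only the groups compared, 2 with a pseudocount of 0.1, and 1 to 6 with a mouse left out. For untreated p21-null minus wild-type, where 2 passed, 8 passed on TPM as deposited, all higher in p21-null mice, and 4 with median-of-ratios scaling. On the deposited scale the smaller protein-coding share of wild-type tumours raises these differences by itself. Treated p21-null minus p53-null gave 6 to 8. Of the differences of treatment effects, 1 of 8 passed for p21-null minus wild-type on TPM as deposited and 0 otherwise.

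Signs turned in small differences of treatment effects. For p53-null minus wild-type, Igtp was -0.12 with 40 tumours as separate samples and -0.11 with a within-mouse correlation, and with a mouse left out Igtp ran from -0.36 to 0.39 and Irgm2 from -0.12 to 0.45. For p21-null minus wild-type, Gbp9 was -0.065 at a pseudocount of 5. For p21-null minus p53-null, Irgm2 was 0.0062 with median-of-ratios scaling, 0.044 with separate tumours and 0.040 with a within-mouse correlation, and with a mouse left out it ran from -0.31 to 0.25, Gbp3 from -0.084 to 0.51 and Irgm1 from -0.072 to 0.29. Signs against wild-type turned with the scale. On TPM as deposited, p53-null minus wild-type was 1.76 for Gbp7 and 1.34 for Gbp9, and p21-null minus wild-type was 2.40 for Gbp2, 1.09 for Gbp7, 0.62 for Gbp9, 2.75 for Irgm1 and 1.80 for Irgm2. With median-of-ratios scaling, p21-null minus wild-type was 0.22 for Gbp2, 0.41 for Irgm1 and 0.093 for Irgm2, and with a mouse left out Gbp3 ran from -0.040 to 0.17. On TPM as deposited, the protein-coding share of the 2 kits by itself raises null minus wild-type. The causes of the other sign changes were not tested.

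Over all settings, leaving out mice included, the number of all tested genes passing ran from 180 to 1044 in wild-type (756 as reported), from 1 to 365 in p53-null (242) and from 794 to 1678 in p21-null mice (1347) for treatment. It ran from 60 to 149 (111), 0 to 65 (12) and 75 to 175 (103) for the differences of treatment effects, p53-null minus wild-type, p21-null minus wild-type and p21-null minus p53-null. For p21-null minus p53-null it ran from 1587 to 4683 treated (3860) and 67 to 491 untreated (264), and against untreated wild-type from 8217 to 14824 for p53-null (9108) and 8471 to 15020 for p21-null (9405).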
